A study of Mus musculus with 5 samples.

Results

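The 10 genes described here govern entry into the cell cycle or belong to the p53 loop that can halt it. They are Cdkn1a, Cdkn1b, Cdkn2c, Cdkn2d, Ccnd2, Ccnd3, Cdk4, Cdk6, Trp53 and Mdm2, and they were followed in CD8+ T cells recovered from mouse tumors. They were chosen by symbol, with earlier results of these data known. All 10 of 10 were found among the 23337 genes listed for each library. All 10 passed the filter on low counts that left 11299 genes for testing. The anti-PD-L1 group held 2 libraries and the Control IgG group 3. Both groups were C57BL/6J CD45.1 OT-I CD8+ T cells, which carry 1 transgenic T cell receptor that recognises an ovalbumin peptide. The donors of these cells were 6 to 12 weeks old. Their T cells were activated with anti-CD3 and anti-CD28, kept in IL-2 at 10 U/ml until day 5 to 6 of culture, and injected into the bloodstream of mice bearing B16-OVA, a mouse melanoma that expresses ovalbumin, at tumor sizes of 0.25 to 0.4 cm. Anti-PD-L1 hosts were given a blocking antibody against PD-L1, a ligand of the inhibitory receptor PD-1. Control IgG hosts were given a rat IgG2b against KLH, a protein foreign to mice. Either antibody was injected on days 3 and 6 in an amount of 200 µg for each mouse. Tumors were taken on day 8, or once they measured 1.2 cm, several mice of a group were combined, and live cells positive for CD8 and CD45.1 were sorted. Each library is therefore a pool of mice, and all cells had been activated in culture before transfer.

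A T cell leaves the resting state when D-type cyclins join the kinases CDK4 and CDK6. The resulting kinase complexes phosphorylate the retinoblastoma protein and release E2F factors, which turn on genes of DNA replication. Inhibitors of the INK4 family, among them the products of Cdkn2c and Cdkn2d, bind CDK4 and CDK6 alone, whereas the CIP/KIP proteins p21 (Cdkn1a) and p27 (Cdkn1b) bind whole cyclin and kinase complexes. The transcription factor p53 (Trp53) induces Cdkn1a and Mdm2, and the MDM2 protein in turn marks p53 for degradation. In T lymphocytes Ccnd2 and Ccnd3 are the D cyclins in main use, p27 is a brake of resting cells, and p21 is made after activation as well as after DNA damage.

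The stretch of DNA upstream of Cdkn1a carries a sequence that is known as background to be bound by p53, and the stretch upstream of Cdk4 carries the E-box CACGTG, the word bound by MYC. They are shown because Cdkn1a and Cdk4 are the members whose groups stood farthest apart in the higher and in the lower direction. RefSeq windows of 300 bases on GRCm38.p6, from 250 bases before to 50 bases after an annotated start, were at hand for 9 of the 10 genes, 12 windows in all. The Cdkn1a window, chr17:29090729-29091028 on the plus strand, is given with a p53 element in capitals, and the Cdk4 window, chr10:127063285-127063584 on the plus strand, with each E-box in capitals.
Cdkn1a: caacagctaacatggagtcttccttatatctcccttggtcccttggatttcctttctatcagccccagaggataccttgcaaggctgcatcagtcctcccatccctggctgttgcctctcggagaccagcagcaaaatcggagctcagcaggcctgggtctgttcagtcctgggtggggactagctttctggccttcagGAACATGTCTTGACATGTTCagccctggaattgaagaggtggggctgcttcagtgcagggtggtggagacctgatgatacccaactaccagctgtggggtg
Cdk4: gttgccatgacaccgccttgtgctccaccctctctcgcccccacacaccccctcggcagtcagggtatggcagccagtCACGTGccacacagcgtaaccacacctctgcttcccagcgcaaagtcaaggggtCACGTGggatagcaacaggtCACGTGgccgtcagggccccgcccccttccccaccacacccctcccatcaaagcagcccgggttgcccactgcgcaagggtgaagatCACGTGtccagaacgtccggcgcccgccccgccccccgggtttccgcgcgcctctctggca

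A p53 element was taken as the consensus of the paired p53 half-sites with no spacer, with at most 1 mismatch over the whole element and none in the CNNG core of either half-site, on either strand. It began 51 bases before the upstream one of the 2 annotated Cdkn1a starts, with 1 mismatch, and in 0.0548% of all 32851 windows. No other member window held it, nor did the second Cdkn1a window. The read counts do not separate transcripts from the 2 starts. The Cdk4 window held CACGTG 4 times, and 7.15% of all windows held it at least once. Single copies were also found in the windows of Cdk6 and Trp53 and in 1 of the 2 windows of Cdkn2c. GTAAACA, a word bound by FOXO factors, was found on either strand once in the windows of Mdm2 and once in 1 of the 2 windows of Ccnd3, against 3.65% of all windows. The E2F words TTTCCCGC, TTTGGCGC, TTTCGCGC and TTTGCCGC were found in none of the 12 windows and in 2.26% of all windows. These are matches of letters in short windows, and no binding was measured.

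Counts assigned to genes numbered from 9985943 to 12830485 per library. Both libraries numbered 1 stood apart, with 11977 (anti-PD-L1) and 11696 (Control IgG) genes with at least 1 count, against 13564 in anti-PD-L1 replicate 2 and 13673 and 13801 in Control IgG replicates 2 and 3. T cell markers were present throughout, with Cd8a at 1905 and 1550 CPM (counts per 1000000 assigned reads) in the anti-PD-L1 libraries and 1951, 1505 and 1493 CPM in the Control IgG libraries. Transcripts of other cells were also present. The summed level of 8 melanoma markers was 48.8 and 125 CPM in anti-PD-L1 replicates 1 and 2, against 6.94, 370 and 116 CPM in Control IgG replicates 1 to 3, led by Pmel. The 8 macrophage and monocyte markers summed to 76.0 and 119 CPM after anti-PD-L1 and to 191, 132 and 78.0 CPM after Control IgG, led by Lyz2, and no marker of either list was at 0 in every library. Fibroblast markers summed to at most 0.390 CPM after anti-PD-L1 and 1.69 CPM after Control IgG. The 6 dendritic cell markers summed to 18.1 and 15.8 CPM after anti-PD-L1, against 12.0, 10.1 and 12.1 CPM after Control IgG. Xcr1 led them, at 18.1 and 8.26 CPM after anti-PD-L1 and 4.84, 4.91 and 5.44 CPM after Control IgG. In anti-PD-L1 replicate 1 Xcr1 made up the whole sum, and the other markers of the list were at 0. Zbtb46 had 0 and 6.16 CPM after anti-PD-L1, against 7.10, 4.91 and 3.41 CPM after Control IgG. None of the 6 was at 0 in every library. Of the 4 endothelial markers Cdh5 and Kdr were at 0 in all libraries, and Pecam1 had 28.5 and 47.9 CPM after anti-PD-L1, against 42.3, 39.2 and 57.6 CPM after Control IgG. The part of these cells in the results that follow was not tested. In bulk samples, fewer cells that express a gene and less RNA of it per cell cannot be told apart.

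The comparison asked whether PD-L1 blockade was accompanied by other levels of the cell cycle brakes, of the D cyclins with their kinases and of the p53 loop. Cdkn1a was 2.10-fold higher in the anti-PD-L1 group, Mdm2 1.30-fold and Cdk6 1.23-fold higher, and for each of these the anti-PD-L1 values both exceeded every Control IgG value. Cdk4 stood at 0.776 and Trp53 at 0.884 of the Control IgG level, with both anti-PD-L1 libraries below every Control IgG library. None of the 10 genes passed an adjusted p of 0.05 in edgeR's quasi-likelihood test, where 0.00% of all tested genes did. At an unadjusted p under 0.05 there was 1 of the 10, Cdkn1a, against 1.19% of tested genes in the higher direction and 0.947% in the lower. DESeq2 also passed 0 of the 10, against 0.0265% of its genes, and had 1, Cdkn1a, at an unadjusted p under 0.05. The groups did not overlap for 5 of the 10 genes, 3 above and 2 below, against 7.74% of all tested genes above and 9.58% below. Of the 10 genes 7 had a fold change above 0, against 48.1% of tested genes. Because the 10 genes were chosen with earlier results of these data known, these counts add no separate evidence. The median log2 fold change of the 10 was 0.27, and that of all tested genes was -0.02. The median of the 10 became -0.00054 if anti-PD-L1 replicate 1 was left out, 0.44 if replicate 2 was, and -0.052 without both libraries numbered 1.

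**Figure D1:**
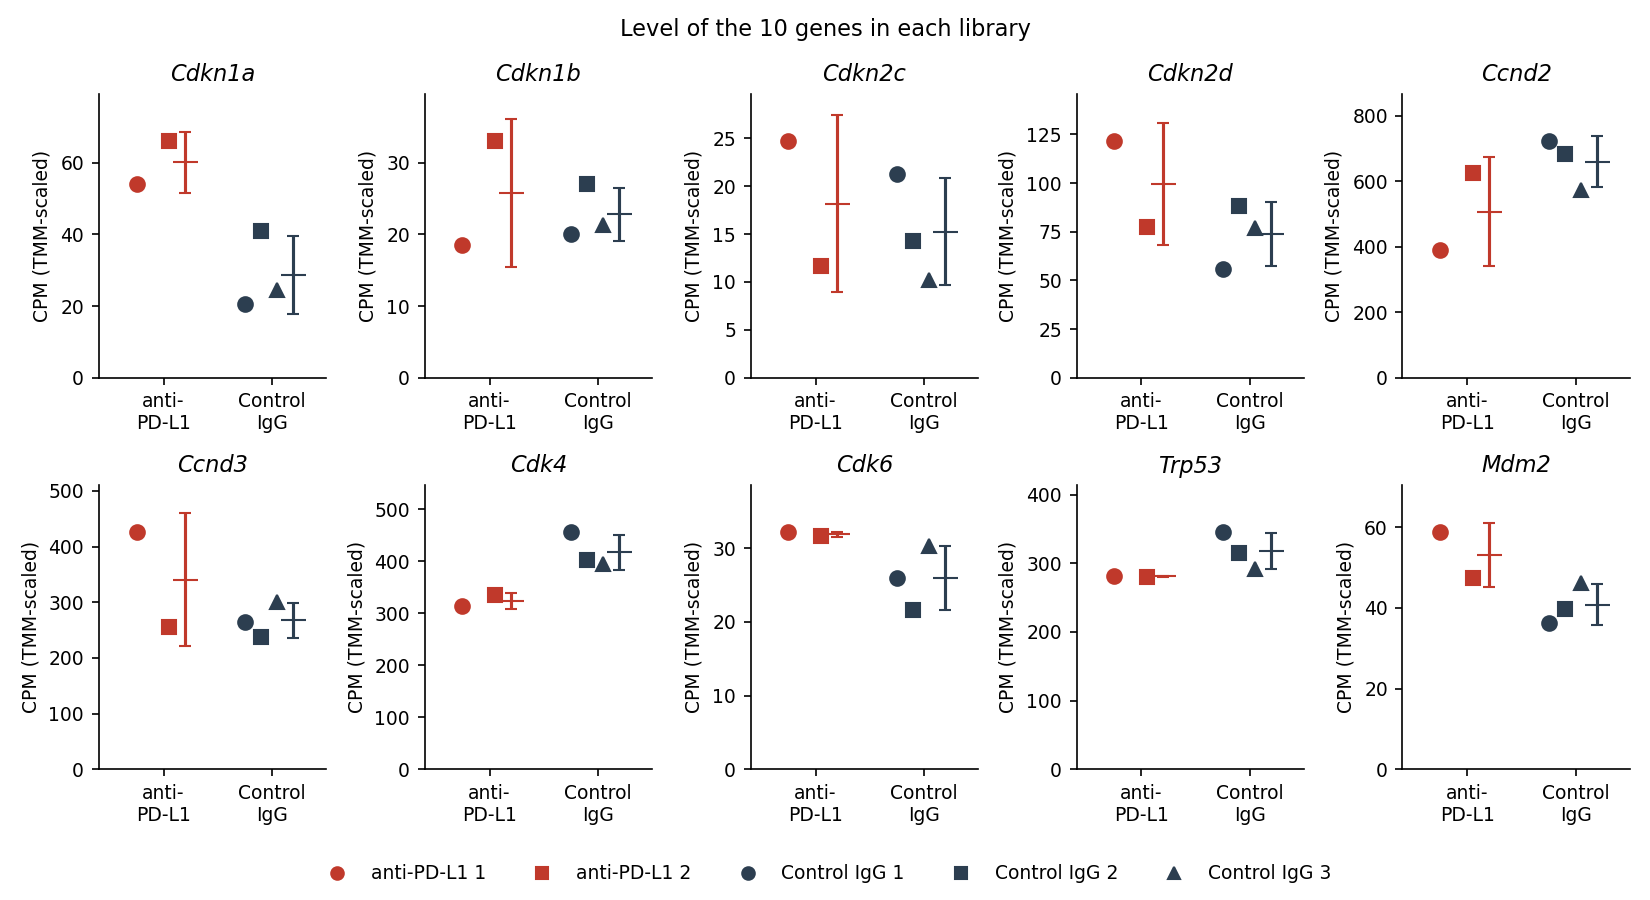
Level of each of the 10 genes in CPM (vertical axes, from 0, each gene on its own scale) in the 2 anti-PD-L1 libraries (red) and the 3 Control IgG libraries (dark), with the symbol giving the replicate number; the dash and bars beside the points are the mean and SD of a group. The groups do not overlap for Cdkn1a, Cdk6 and Mdm2, higher after anti-PD-L1, and for Cdk4 and Trp53, lower after anti-PD-L1.

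Of the cell cycle inhibitors, Cdkn1a (chromosome 17, 29090976 to 29100727, plus strand, GRCm38) encodes p21, which inhibits CDK2 and other cyclin-dependent kinases. It had 54.1 and 66.1 CPM in anti-PD-L1 replicates 1 and 2, against 20.6, 41.1 and 24.4 CPM in Control IgG replicates 1 to 3, where CPM are scaled by the TMM factors of edgeR. Both anti-PD-L1 libraries stood above the highest control, Control IgG replicate 2, which itself stood well above the other controls. The means were 60.1 ± 8.50 CPM (SD, n = 2) after anti-PD-L1 and 28.7 ± 10.9 CPM (SD, n = 3) after Control IgG, a log2 fold change of 1.07 ± 0.35 (SE). By unadjusted p it ranked 39th of the 11299 tested genes, with an adjusted p of 0.9999 in edgeR. Its read counts were 584 and 888 after anti-PD-L1 and 230, 440 and 318 after Control IgG. With 1 library left out at a time the log2 fold change ran between 0.88, without Control IgG replicate 1, and 1.42, without Control IgG replicate 2, and edgeR's adjusted p between 0.540 and 0.9998. Without both libraries numbered 1 the log2 fold change was 1.01 ± 0.31 (SE), with 1 anti-PD-L1 library and 2 controls. Among the controls Cdkn1a was highest where melanoma markers were highest, in Control IgG replicate 2, and lowest where they were lowest, in Control IgG replicate 1. Of the anti-PD-L1 libraries, replicate 2 was the higher in both. Across groups the order differed: the anti-PD-L1 libraries had melanoma sums of 48.8 and 125 CPM, against 370 CPM in Control IgG replicate 2, and more Cdkn1a. The part of melanoma RNA in the Cdkn1a level was not tested.

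Cdkn1b (chromosome 6, 134920401 to 134925513, plus strand) encodes p27, the inhibitor that holds resting lymphocytes out of cycle. It had 18.5 and 33.1 CPM after anti-PD-L1, against 20.0, 26.98 and 21.4 CPM in the Control IgG libraries. The anti-PD-L1 libraries stood on either side of the controls, replicate 1 below all of them and replicate 2 above all of them. The log2 fold change was 0.18 ± 0.36 (SE), and its sign turned without anti-PD-L1 replicate 2, at -0.28. Within a library, the count ratio of Cdkn1a to Cdkn1b was 2.92 and 2.00 after anti-PD-L1 and 1.03, 1.52 and 1.14 after Control IgG.

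The INK4 members bind CDK4 and CDK6. Cdkn2d (chromosome 9, 21288410 to 21291407, minus strand), which encodes the INK4 protein p19, had 122 and 77.2 CPM in the anti-PD-L1 libraries, against 56.0, 88.3 and 77.0 CPM in the Control IgG libraries. Replicate 1 stood above all controls and replicate 2 lay among them. The log2 fold change was 0.43 ± 0.30 (SE), and it was -0.11 without both libraries numbered 1. Cdkn2c (chromosome 4, 109660876 to 109667189, minus strand), which encodes p18, had 24.7 and 11.6 CPM after anti-PD-L1, against 21.3, 14.3 and 10.2 CPM after Control IgG. It was highest in both libraries numbered 1, whatever the treatment, and lower in the others. Its log2 fold change was 0.25 ± 0.46 (SE) over the 5 libraries and -0.39 without anti-PD-L1 replicate 1. The ratio of Cdkn2d to Cdkn2c counts was lowest in Control IgG replicate 1, at 2.63, and 4.92 and 6.65 after anti-PD-L1, against 6.18 and 7.56 in Control IgG replicates 2 and 3.

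Ccnd2 and Ccnd3 encode the D cyclins that T cells use to activate CDK4 and CDK6. Ccnd2 (chromosome 6, 127125162 to 127152193, minus strand) had 389.7 and 624 CPM in the anti-PD-L1 libraries, against 723, 683 and 574 CPM in the Control IgG libraries. Anti-PD-L1 replicate 1 stood below every other library, and replicate 2 lay within the controls. The means were 507 ± 165 CPM (SD, n = 2) and 659.7 ± 77.1 CPM (SD, n = 3), a log2 fold change of -0.38 ± 0.28 (SE), which became -0.082 if anti-PD-L1 replicate 1 was left out and -0.73 if replicate 2 was. Ccnd3 (chromosome 17, 47505051 to 47599691, plus strand) was highest in that same library, with 425 and 256 CPM after anti-PD-L1 against 265, 238 and 300.3 CPM after Control IgG. Its log2 fold change was 0.35 ± 0.28 (SE) over all libraries and -0.066 without anti-PD-L1 replicate 1.

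The balance of the D cyclins can be read within a library, where scaling between libraries plays no part. Anti-PD-L1 replicate 1 held 1.09 Ccnd3 reads per Ccnd2 read, with a 95% counting interval of 1.05 to 1.14 from the exact binomial method. Anti-PD-L1 replicate 2 held 0.410, and Control IgG replicates 1 to 3 held 0.367, 0.348 and 0.523. Anti-PD-L1 replicate 1 was thus the only library with more Ccnd3 than Ccnd2 reads, while replicate 2 lay within the controls. These ratios were chosen after the counts were seen, and the intervals cover counting error only.

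**Figure D2:**
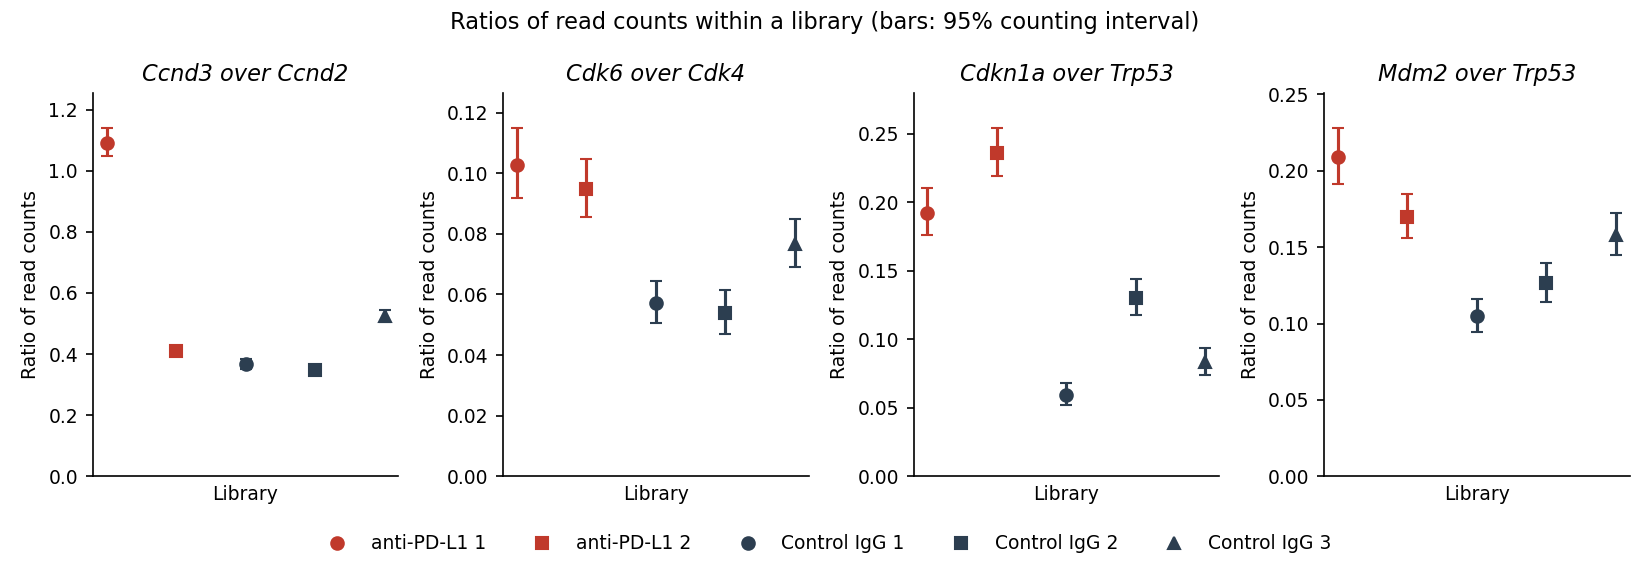
Ratio of read counts of 4 gene pairs within each library (vertical axes, from 0; points are libraries, red for anti-PD-L1 and dark for Control IgG, and bars are 95% exact binomial intervals, which cover counting error only). Ccnd3 over Ccnd2 is set apart in anti-PD-L1 replicate 1 alone, at 1.09, while the other pairs are of genes whose groups already did not overlap in opposite directions, so their separation follows from the levels.

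The catalytic partners differed in direction. Cdk4 (chromosome 10, 127063534 to 127067920, plus strand) had 313 and 335 CPM in the anti-PD-L1 libraries, against 455, 402 and 394 CPM in the Control IgG libraries. Both anti-PD-L1 libraries lay below the lowest control, and the gap to it was about as wide as the full span of the controls. The means were 324 ± 15.3 CPM (SD, n = 2) and 417 ± 33.3 CPM (SD, n = 3), a log2 fold change of -0.37 ± 0.23 (SE) with an adjusted p of 0.9999 in edgeR. It stayed between -0.40 and -0.30 with any 1 library left out. Cdk4 shares 641 of its 3249 exon bases with Tspan31, a tetraspanin gene on the opposite strand, and the library chemistry does not mark strand. Tspan31 had 246 and 152 CPM after anti-PD-L1, against 166, 119 and 138 CPM after Control IgG, a log2 fold change of 0.49 ± 0.29 (SE).

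Cdk6 (chromosome 5, 3341485 to 3531008, plus strand), the other kinase of the D cyclins, had 32.2 and 31.7 CPM in the anti-PD-L1 libraries, against 26.0, 21.7 and 30.3 CPM in the Control IgG libraries. The anti-PD-L1 values both exceeded every control, by a small margin over Control IgG replicate 3, and this separation was lost when library totals alone were used for scaling. The log2 fold change was 0.30 ± 0.29 (SE). Reads of Cdk6 per read of Cdk4 numbered 0.103 and 0.0946 after anti-PD-L1 and 0.0571, 0.0539 and 0.0767 after Control IgG. This ratio restates the levels of both genes, whose groups did not overlap in opposite directions, and adds no separate evidence.

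In the p53 loop, Trp53 (chromosome 11, 69580359 to 69591873, plus strand), the gene of p53 itself, had 281 and 280.2 CPM in the anti-PD-L1 libraries, against 345, 315 and 292 CPM in the Control IgG libraries. Both anti-PD-L1 libraries lay just below the lowest control. The means were 281 ± 0.608 CPM (SD, n = 2) and 317 ± 26.5 CPM (SD, n = 3), a log2 fold change of -0.18 ± 0.23 (SE). The SD after anti-PD-L1 rests on 2 libraries and is no measure of how far others would spread. Trp53 had the smallest range of the 10 genes over the 5 libraries, 0.30 on the log2 scale, and Cdkn1a the largest, 1.68.

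Mdm2 (chromosome 10, 117688875 to 117710758, minus strand), the ubiquitin ligase that p53 induces and that degrades p53, had 58.8 and 47.5 CPM in the anti-PD-L1 libraries, against 36.2, 39.9 and 46.2 CPM in the Control IgG libraries. The anti-PD-L1 values both exceeded every control, replicate 2 by little. The means were 53.1 ± 7.94 CPM (SD, n = 2) and 40.8 ± 5.07 CPM (SD, n = 3), a log2 fold change of 0.38 ± 0.26 (SE). It became 0.22 if anti-PD-L1 replicate 1 was left out and 0.13 without both libraries numbered 1.

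Within a library, Cdkn1a reads per Trp53 read numbered 0.193 and 0.236 after anti-PD-L1 and 0.0596, 0.130 and 0.0835 after Control IgG. Mdm2 reads per Trp53 read numbered 0.209 and 0.170 after anti-PD-L1 and 0.105, 0.126 and 0.158 after Control IgG. Both ratios restate the levels above, since Cdkn1a and Mdm2 lay above and Trp53 below every control, and add no separate evidence. The order within the anti-PD-L1 group was not shared: replicate 2 had more Cdkn1a and replicate 1 more Mdm2 per Trp53 read.

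**Figure D3:**
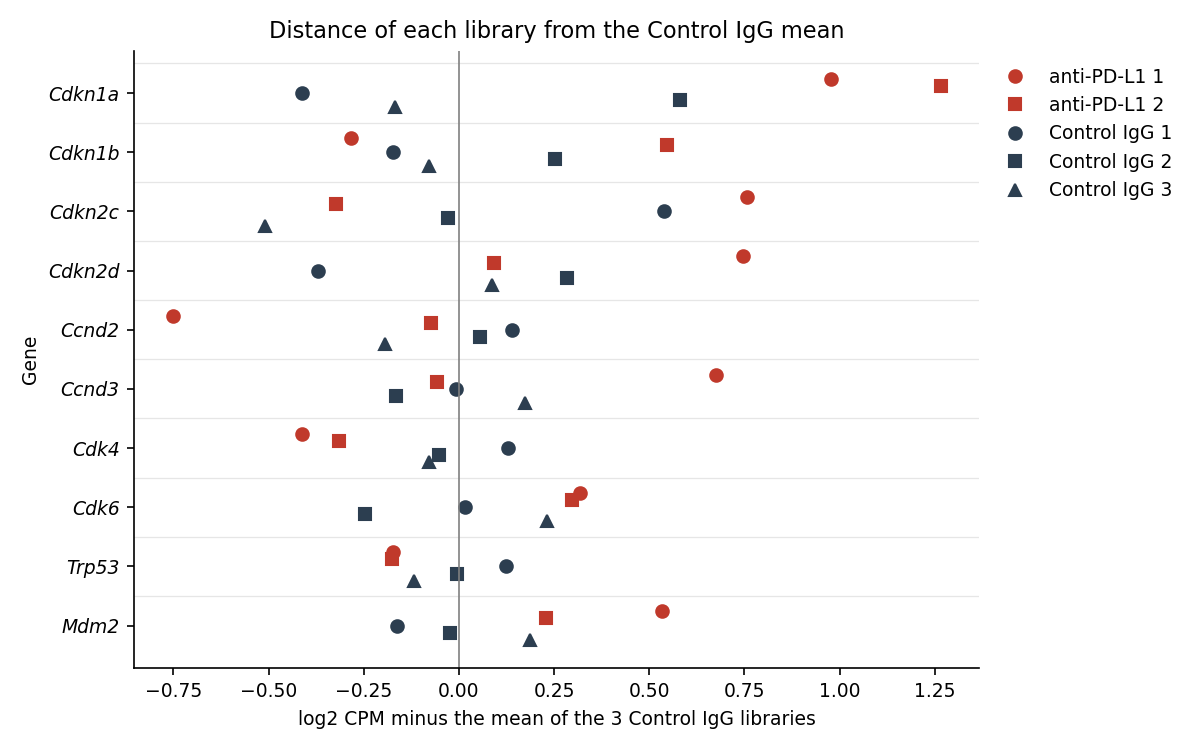
Distance of each library from the mean of the 3 Control IgG libraries, on the log2 CPM scale (horizontal axis), for each of the 10 genes (rows; red for anti-PD-L1, dark for Control IgG, symbol by replicate number). Anti-PD-L1 replicate 1 lies outside the controls for all 10 genes and replicate 2 for 6, and Cdkn1a is the farthest out, at 0.98 and 1.27 in anti-PD-L1 replicates 1 and 2.

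The anti-PD-L1 libraries did not depart from the controls to the same extent. Anti-PD-L1 replicate 1 fell outside the span of the controls for 10 of the 10 genes, 6 above and 4 below, against 57.0% of all tested genes. Replicate 2 lay outside for 6, with Cdkn1a, Cdkn1b, Cdk6 and Mdm2 above and Cdk4 and Trp53 below, against 42.5% of all tested genes. Cdkn2c, Cdkn2d, Ccnd2 and Ccnd3 were set apart in replicate 1 only, and Cdkn1b lay on opposite sides of the controls in the 2 libraries.

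**Figure D4:**
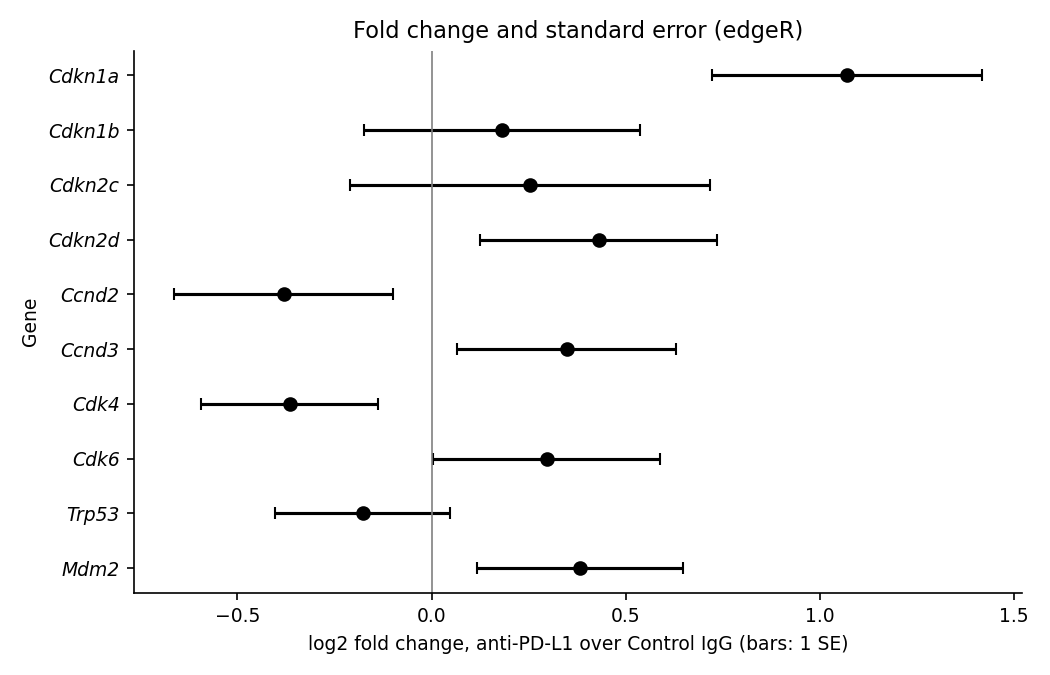
Log2 fold change of anti-PD-L1 over Control IgG (points) with 1 SE from edgeR's quasi-likelihood fit on either side (bars), for the 10 genes. Cdkn1a stands at 1.07 ± 0.35, and the other 9 genes lie between -0.38 and 0.43.

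Levels of different genes were compared per kilobase of merged exons of GENCODE vM21, over all 5 libraries. Cdk4 was the highest, at a mean of 117 CPM per kilobase, followed by Trp53 at 74.8, Ccnd2 at 63.6, Cdkn2d at 53.4 and Ccnd3 at 33.8. Cdkn1a followed at 11.6, Mdm2 at 8.99, Cdkn2c at 6.11, Cdkn1b at 5.27 and Cdk6 at 2.03. The ranges over libraries of neighbours in this order overlapped except between Cdk4 and Trp53, between Ccnd3 and Cdkn1a, and between Cdkn1b and Cdk6. Per kilobase, Trp53 stood above Ccnd2 and Cdkn2d above Ccnd3 in 5 of 5 libraries. In CPM not divided by length both orders were reversed in every library, so they rest on the exon lengths used. Merged exons span 8.775 kilobases for Ccnd3, 9.409 for Ccnd2 and 13.989 for Cdk6. A gene model longer than the transcripts in use would set a level too low.

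Patterns over the 5 libraries were compared by the root mean square difference of log2 CPM, each gene centred on its own mean. Of the 45 pairs among the 10 genes, Cdk4 and Trp53 were the closest, at 0.10, and Cdkn1a and Ccnd2 the most distant, at 0.83. The count ratio of that most distant pair, Cdkn1a to Ccnd2, was 0.139 and 0.106 after anti-PD-L1, against 0.0284, 0.0602 and 0.0425 after Control IgG. The pair was picked from these same values, so its ratio restates the levels and adds no separate evidence. Of 8280 other tested genes of at least 3 in mean log2 CPM, those closest to Cdkn1a were Adssl1 at 0.24, Lamc1 at 0.24 and Tcn2 at 0.25. Adssl1 had 40.4 and 40.1 CPM after anti-PD-L1, against 14.7, 22.9 and 21.7 CPM after Control IgG. It was picked for its likeness to Cdkn1a in these same libraries, so its difference between groups adds no separate evidence.

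Other genes of the same pathways were described as lists. Of other CDK inhibitors and brakes, 4 of 6 were tested, 2 above and 2 below 0, with 0 called in either direction by edgeR, as in each list that follows, and a median log2 fold change of 0.28. Cdkn2b, the INK4 gene of p15, had 12.2 and 4.47 CPM after anti-PD-L1, against 2.77, 1.77 and 3.22 CPM after Control IgG, a log2 fold change of 1.68 ± 0.65 (SE, edgeR adjusted p 0.9999). The anti-PD-L1 values both exceeded every control, replicate 1 by far the most. Cdkn3, a phosphatase that acts on CDKs, had 52.5 and 19.1 CPM, against 22.2, 21.7 and 19.2 CPM, so that its difference lay in replicate 1 alone. Cdkn2a had 6 and 10 reads after anti-PD-L1 and 0, 2 and 2 after Control IgG, and Cdkn1c at most 5 in any library. Both were too low to be tested.

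Of 14 other cyclins and CDK regulators, 8 lay above and 6 below 0, with a median of 0.08. Ccnd1, the third D cyclin, was low, with 4.08 and 5.07 CPM after anti-PD-L1 and 2.68, 2.15 and 2.68 CPM after Control IgG. Ccne1, the E cyclin that follows the D cyclins, had 99.4 and 75.8 CPM after anti-PD-L1 against 129, 93.0 and 99.7 CPM after Control IgG, overlapping. Relative to the Control IgG mean, the median gene of this list stood at 0.42 in the first anti-PD-L1 library and -0.37 in the second, on the log2 scale.

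The next list held the pocket proteins, on which cyclin D kinases act, the E2F factors released by this, and genes of the DREAM complex. Of 18 tested, 9 lay above and 9 below 0, with a median of 0.01. The anti-PD-L1 values both exceeded every control for 3 of the 18, the pocket protein genes Rb1, Rbl1 and Rbl2, against 7.74% of all tested genes. Rb1 did so narrowly, with 13.1 and 13.9 CPM after anti-PD-L1 against 4.38, 12.98 and 10.2 CPM after Control IgG. Rbl2, which encodes p130, the pocket protein of resting cells, had 94.1 and 58.0 CPM after anti-PD-L1, against 15.4, 51.7 and 49.0 CPM after Control IgG. Its log2 fold change was 0.97 ± 0.49 (SE), and most of the spread came from Control IgG replicate 1, the lowest of all. Tfdp1, the dimer partner of E2F factors, had 122 and 95.9 CPM after anti-PD-L1, against 190.2, 129 and 143 CPM after Control IgG, a log2 fold change of -0.50 ± 0.27 (SE). Of the 12 genes that turn over p27, p21 and D cyclins, 5 lay above and 7 below 0, with a median of -0.04. None of these 12 had groups that did not overlap, and the smallest p-values belonged to Fbxo31, at -0.55 ± 0.50 (SE), and Skp1a, at -0.27 ± 0.31 (SE).

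Of other p53 target genes, 35 of 38 were tested. Of these, 22 lay above and 13 below 0, with a median of 0.08. The anti-PD-L1 values both exceeded every control for 3, Ccng1, Pmaip1 and the gene listed as 9630033F20Rik (matched to Tigar), and below every control for 5, Gadd45a, Xpc, Ei24, Pltp and Bloc1s2. Of all tested genes 7.74% lay above and 9.58% below every control. Ccng1, which encodes cyclin G1, had 143 and 88.3 CPM after anti-PD-L1, against 77.9, 57.6 and 77.5 CPM after Control IgG, a log2 fold change of 0.70 ± 0.29 (SE, edgeR adjusted p 0.9999). Pltp, a phospholipid transfer protein, had 3.24 and 5.29 CPM after anti-PD-L1, against 12.6, 8.78 and 6.28 CPM after Control IgG, a log2 fold change of -1.11 ± 0.54 (SE).

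Of 19 regulators and kinases of p53, 3 lay above and 16 below 0, with a median of -0.23. That median depended on the libraries, since the median gene stood at -0.38 in the first anti-PD-L1 library and 0.0025 in the second, against -0.26, 0.38 and -0.12 in the Control IgG libraries. Npm1, the nucleolar protein nucleophosmin, had 1058 and 1569 CPM after anti-PD-L1, against 3049, 2153 and 1857 CPM after Control IgG, a log2 fold change of -0.84 ± 0.31 (SE, edgeR adjusted p 0.9999). Rpl5, a ribosomal protein that binds MDM2, had 1401 and 1491 CPM after anti-PD-L1, against 2369, 1743 and 1458 CPM after Control IgG. Of the 11 tested FOXO, PI3K and MYC genes that feed into p27 and the D cyclins, 4 lay above and 7 below 0, with a median of -0.16. Myc, a growth-promoting transcription factor, had 229 and 534 CPM after anti-PD-L1, against 745, 469 and 525 CPM after Control IgG, so that anti-PD-L1 replicate 1 was the lowest library and replicate 2 lay among the controls. Stat5b, a factor downstream of IL-2, had 50.7 and 64.3 CPM after anti-PD-L1, against 27.9, 47.0 and 54.3 CPM after Control IgG.

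The medians of these lists followed single libraries. Leaving out each library in turn gave medians from -0.14 to 0.67 for other CDK inhibitors, from -0.38 to 0.42 for other cyclins and CDKs, and from -0.087 to 0.11 for pocket proteins and E2F factors. The median ran from -0.17 to 0.099 for the turnover genes and from -0.23 to 0.045 for other p53 targets. It ran from -0.40 to -0.031 for p53 regulators and from -0.47 to 0.18 for the FOXO, PI3K and MYC genes. Each fit filtered genes anew, and 9630033F20Rik was not among the other p53 targets here, so the genes behind a median differ somewhat from those above. Of the 7 lists, the p53 regulators alone had a median of 1 sign in all of these fits.

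**Figure D5:**
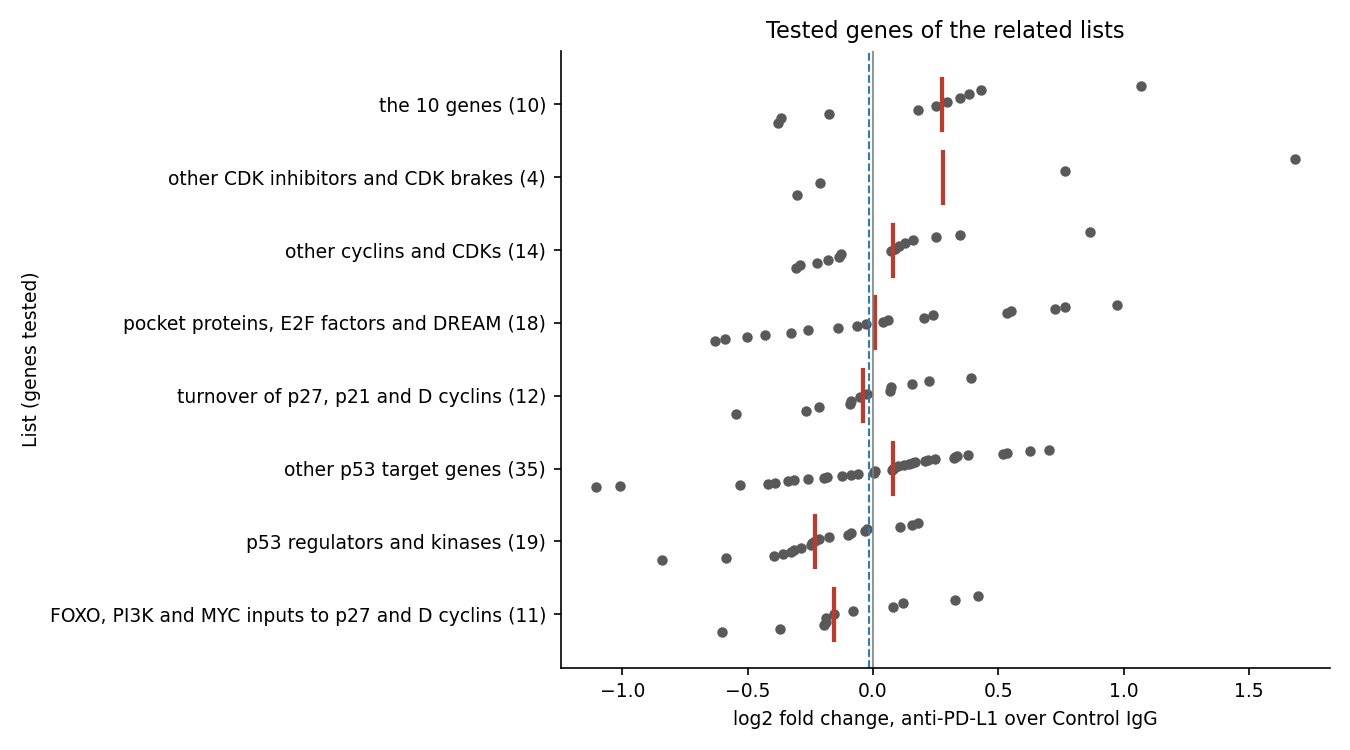
Log2 fold change of anti-PD-L1 over Control IgG (horizontal axis) for each tested gene (dots) of the 10 genes and of 7 lists of related genes (rows, with the number tested), with the median of each list in red and that of all tested genes as a dashed line. The medians run from -0.23 for p53 regulators and kinases to 0.28 for other CDK inhibitors, and no gene shown passed an adjusted p of 0.05.

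Some counts may hold reads of other loci. Processed pseudogenes with at least 90% identity over 200 bases or more exist for Ccnd3, at 96.3% over 881 bases, for Trp53, at 94.96% over 1170 bases, for Cdk4, at 90.5% over 264 bases, and for Cdk6, at 90.5% over 232 bases. How reads that map to several places were counted is not given in the sources used here. Ccnd3 also shares 361 exon bases with Bysl on the opposite strand. Ccnd2 shares 368 exon bases with 9330179D12Rik, an antisense gene on the opposite strand that is also listed for each library.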

How the data were processed

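Each library was made from the RNA of 5000 to 30000 sorted cells, by poly(A) capture, Smart-seq2 amplification and tagmentation, per the labels' protocols. The deposited files give a raw count of reads for each gene symbol; TopHat, HTSeq and mm10 are named per the submitters' processing notes. The sources used here do not give versions, annotation, strand setting or how multi-mapping reads were treated. The 5 counter lines were left out; reads without a feature made up 7.46% to 15.2% and ambiguous reads 1.38% to 1.51% of a library's counts. PCR copies count as separate reads, so counting intervals and floors cover counting error only; 3 counts correspond to 0.234 to 0.300 CPM.

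The test was the two-sided quasi-likelihood F-test of edgeR 4.0.16 (R 4.3.3), with TMM factors and filterByExpr (count at least 10, total at least 15), with Benjamini-Hochberg adjustment over 11299 genes and a threshold of 0.05. SE is the size of the log2 fold change divided by the square root of F. CPM are TMM-scaled, except markers of other cell types and Cd8a, which use library totals; log2 CPM used a prior count of 2. Simulated counts for these 5 libraries were used to gauge the sensitivity of the test. Planted 2-fold shifts were detected in 14.9% of cases, while detection rose to 79.1% at 4-fold and 89.4% at 8-fold. These shifts were planted together, in 67, 67 and 66 well-counted genes at 2-, 4- and 8-fold. Many large shifts loosen the Benjamini-Hochberg cutoff, so the rates may be too high for these data, where 0 genes passed. Even so, the test missed most planted 2-fold shifts, and a gene that did not pass is not shown to be unchanged. DESeq2 1.42.0 was an alternative. No pair of libraries agreed within sampling noise (chi-square per degree of freedom 19.2 to 92.3). Replicates are pools of mice, and which mice or days each pool holds is not given, so p-values measure the spread between pools. The labels do not say that a replicate number pairs libraries.

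The 10 genes and the lists were chosen with earlier results of these data known. Named from each list are the 2 tested genes of smallest p, and for Cdkn1a the 3 genes nearest in pattern; Cdkn2a, Cdkn1c, Rb1, Rbl1, Tspan31, Bysl and the genes named only as separated were named after their values were seen. Of the list symbols, 3 were not matched to a row.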

Additional observations from a re-analysis of the deposited data

How the results depend on the processing

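The 11 alternatives were DESeq2 size factors, library totals, no low-count filter, DESeq2, leaving out each library, leaving out both libraries numbered 1, and a replicate block. None passed any of the 10 genes, and the lowest edgeR or DESeq2 adjusted p of a member was 0.502. Over all genes, 5 passed with no low-count filter, 4 in DESeq2, 1 without both libraries numbered 1, and 0 otherwise. Cdkn1a, Ccnd2, Cdk4, Cdk6, Trp53 and Mdm2 kept their direction throughout. Cdkn2c turned to -0.39 without anti-PD-L1 replicate 1, -0.083 without both libraries numbered 1 and -0.037 with a replicate block. Ccnd3 turned to -0.066 without anti-PD-L1 replicate 1 and -0.086 without both libraries numbered 1, where Cdkn2d was -0.11. Cdkn1b turned to -0.28 without anti-PD-L1 replicate 2. With 1 library left out, Cdkn2c ran from -0.39 to 0.73, Ccnd3 from -0.066 to 0.69 and Cdkn1b from -0.28 to 0.54. Members whose groups did not overlap numbered 3 to 6 above and 2 to 4 below with 1 library left out, the highest numbers without anti-PD-L1 replicate 2, 2 above with library totals, and 4 above and 3 below without both libraries numbered 1. Over all tested genes the share was 27.9% above and 29.3% below without anti-PD-L1 replicate 2, and 31.1% above and 33.2% below without both libraries numbered 1, against 7.74% and 9.58% with all 5 libraries, so these higher numbers, from fewer libraries, say nothing particular to the members; the lone anti-PD-L1 library left is assumed to vary like the controls. With the replicate block 0 genes passed in edgeR, with 354 higher and 251 lower at an unadjusted p under 0.05. Cdkn1a had 1.04 ± 0.30 (SE) in that fit. Control IgG replicate 3 is alone in its block and adds nothing to that fold change. The block also leaves little from which to estimate the spread, so the fit is no firmer than the main one. Deviations from the group mean of libraries numbered alike correlated across genes at 0.33 and 0.37, in 2 pairs only. With 2 anti-PD-L1 libraries these deviations mirror each other, so the 2 correlations are linked by construction. They cannot show a pairing, and the numbers were not taken to pair libraries. The medians of the lists were added as results after the data had been seen.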
